A study of Mus musculus with 18 samples.

Results

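The IκB kinases (IKKs) and the kinases and adaptors that act beside, upstream or downstream of them were described here by the mRNA levels of 10 genes. The genes were *Ikbkb*, *Chuk*, *Ikbkg*, *Ikbke*, *Tbk1*, *Tank*, *Map3k7*, *Map3k8*, *Map3k14* and *Ripk2*. They were found by gene symbol in a table of 62197 genes. All 10 of 10 passed the filter on low values, and 17875 genes were tested. Bulk RNA sequencing was done on bone marrow-derived dendritic cells (DCs), grown for 10 days in medium with GM-CSF from the supernatant of transfected J558 cells. The semiadherent cells were used, and the bone marrow came from mice of 6 to 8 weeks of age. The cells were cPLA_2_ WT or cPLA_2_ KO, and the 3 treatments of each genotype were no confinement, confinement at a height of 3 µm with collection 4 h later, and LPS at 100 ng ml-1 for 30 min followed by a wash and collection on the next day. The 30 min is the time in the labels, and the methods of the study give another. This made 6 conditions with 3 libraries each. The cPLA_2_ KO cells came from mice with a conditional *Pla2g4a* allele crossed to *Itgax-cre*, so that Cre was driven by the promoter of the CD11c gene, and how completely the allele was deleted in each cell was not measured here. The protocol text in the labels mentions LPS for every sample, whereas titles and treatment entries name it for the LPS groups alone, and the latter were followed. The labels do not say which libraries came from separate animals or cultures, so the p-values measure only the spread between these libraries, although the study calls them biological replicates. The labels name a pair of library kits, and which library was made with which kit is not given in the sources used here.

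The IKK complex joins the catalytic subunits IKKα and IKKβ to the regulatory subunit NEMO and phosphorylates the inhibitors that hold NF-κB in the cytoplasm, which marks them for degradation. IKKε and TBK1 are related kinases that phosphorylate interferon regulatory factors. The MAP3 kinases TAK1 and NIK, together with RIPK2, carry signals from Toll-like, TNF-family and NOD-like receptors to these complexes. TPL2, another MAP3 kinase, links IKKβ and NF-κB1 p105 to ERK activation. In DCs the pathway is known for its part in maturation, cytokine production and migration to lymph nodes. These proteins are regulated to a large extent by phosphorylation and ubiquitination, which mRNA levels do not show.

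*Pla2g4a*, the gene for cPLA_2_, was read first as a check of the labels. It was at 697, 686 and 770.4 in nonconfined cPLA_2_ WT DCs and 548, 542 and 533 in nonconfined cPLA_2_ KO DCs (normalized counts per library), and at 1369, 1430.3 and 1321 in confined cPLA_2_ WT DCs and 923, 871 and 919.5 in confined cPLA_2_ KO DCs. Each cPLA_2_ KO group lay below the cPLA_2_ WT group of the same treatment with no overlap, by a log2 difference of -0.41 (SE 0.059, limma adjusted p = 0.00019) without confinement and -0.60 (SE 0.059, limma adjusted p = 3.81e-08) with it, so the transcript was lower and not absent, and a value per gene does not show which exons are missing. In the LPS libraries it was at 1005, 969 and 967 in the libraries labelled LPS cPLA_2_ WT and 1065, 1032 and 1028 in those labelled LPS cPLA_2_ KO, where the label cPLA_2_ KO did not go with a lower level. *Acot1* was looked at because earlier results of these data had shown that it separates the genotypes. It was at 3.81, 0 and 0.980 in nonconfined cPLA_2_ WT DCs and 478, 377 and 399.8 in nonconfined cPLA_2_ KO DCs, and at 6.76, 5.15 and 4.74 in confined cPLA_2_ WT DCs and 588, 626 and 589 in confined cPLA_2_ KO DCs. The LPS libraries gave 54.9, 0.920 and 33.6 in the libraries labelled LPS cPLA_2_ WT and 0, 49.2 and 40.7 in those labelled LPS cPLA_2_ KO. It was high in all 6 nonconfined and confined cPLA_2_ KO libraries and near 0 in the cPLA_2_ WT ones, whereas in the LPS libraries it did not follow the label. No LPS library, at 54.9 or less, reached the level of those cPLA_2_ KO libraries, so this gene does not show that cPLA_2_ KO cells were among the LPS libraries. The Y-linked gene *Ddx3y* was at 3.05, 0 and 1.97 in nonconfined cPLA_2_ WT DCs and 949, 981 and 874 in nonconfined cPLA_2_ KO DCs, and at 0, 1.72 and 2.37 in confined cPLA_2_ WT DCs and 1036, 920.3 and 948 in confined cPLA_2_ KO DCs. In LPS-treated DCs it was at 1271, 0 and 662 in the libraries labelled LPS cPLA_2_ WT and 2.12, 1476 and 783 in those labelled LPS cPLA_2_ KO. Sex therefore went with genotype in the nonconfined and confined groups and cannot be told apart from it there, whereas among the LPS libraries replicate 2 labelled cPLA_2_ WT and replicate 1 labelled cPLA_2_ KO lacked Y-linked reads and the other 4 had them. Of these 4, replicate 3 of each label had the lower *Ddx3y* levels (662 and 783 beside 1271 and 1476), so they were not alike. Across the labels the LPS libraries lay close in pairs, for *Ddx3y* at 1271 and 1476, 0 and 2.12, and 662 and 783. For *Acot1* the same pairs were at 54.9 and 49.2, 0.920 and 0, and 33.6 and 40.7. They were replicates 1, 2 and 3 labelled cPLA_2_ WT with replicates 2, 1 and 3 labelled cPLA_2_ KO. Whether a pair came from 1 culture was not tested, and the SEs and p-values for LPS treat all 6 libraries as separate. The genotype labels of the LPS libraries are in doubt for these reasons, LPS results were pooled over the labels, and the counts of the 10 genes called in comparisons with LPS are also given without the 2 libraries that lacked Y-linked reads, as are the log2 differences between LPS and nonconfined DCs.

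Recovered reads ranged from 33027230 to 61300021 per library with a median of 40950397, and the lowest value of any of the 10 genes was 464 normalized counts. All 6 DC markers were present in each condition, with *Cd74* the most abundant, and their sums were 355139, 329860.2 and 336131 in nonconfined cPLA_2_ WT DCs, 411624, 388718 and 402818 in nonconfined cPLA_2_ KO DCs, 300902, 280037 and 289118 in confined cPLA_2_ WT DCs, 287527, 272757 and 285876 in confined cPLA_2_ KO DCs, 482674, 410041 and 440052 in the libraries labelled LPS cPLA_2_ WT and 415458, 473765 and 452114 in those labelled LPS cPLA_2_ KO. Markers of other cells moved with the conditions. The 8 neutrophil markers, of which *S100a9* was the most abundant, summed to 238752, 243828 and 242192 in nonconfined cPLA_2_ WT DCs, 369490.1, 332192 and 357354 in nonconfined cPLA_2_ KO DCs, 154013, 146804 and 144581 in confined cPLA_2_ WT DCs, 333025, 346015 and 329985 in confined cPLA_2_ KO DCs, 308802, 290063 and 292182 in the libraries labelled LPS cPLA_2_ WT and 276705, 312354 and 294381 in those labelled LPS cPLA_2_ KO. These sums were lowest in confined cPLA_2_ WT DCs and highest in the nonconfined and confined cPLA_2_ KO groups, as were *S100a8*, *S100a9* and *Ltf*, which made up most of them. The means of *Camp* and *Ngp* were highest with LPS, those of *Elane* and *Mpo* were lower in confined cPLA_2_ KO than in nonconfined cPLA_2_ WT and LPS-treated DCs, and that of *Elane* was highest in nonconfined cPLA_2_ WT DCs. The 6 eosinophil markers, with *Prg2* on top, summed to 30484, 30286 and 30259, 74361, 69164 and 71123, 8519.9, 8095 and 7998, 19766, 19339 and 20344, 43274, 25238 and 34349, and 25084, 43088 and 35055 in the same order of groups. The cPLA_2_ KO libraries had the higher sums in both the nonconfined and the confined state and confined DCs of each genotype had lower sums than nonconfined ones. Not all genes of this list followed the sums, the mean of *Siglecf* being lower in cPLA_2_ KO DCs in both states and that of *Ccr3* lower in confined cPLA_2_ KO than in confined cPLA_2_ WT DCs. With confinement the mean of *Siglecf* was higher in both genotypes and that of *Ccr3* higher in cPLA_2_ WT DCs. For the 6 mast cell and basophil markers, led by *Cpa3*, the sums were 9046, 9077 and 9197, 13939.7, 13295 and 13413, 3475, 3305 and 3427, 6153, 5951 and 6162, 9156, 8403 and 9067, and 8506, 9574 and 9257. The 5 T cell markers found of 6, led by *Cd3g*, gave 2492, 2515 and 2447, 3179.6, 2869.9 and 3104, 802, 827 and 695, 1024, 1240.1 and 1132, 487, 464 and 479, and 431, 525 and 515. Both sums were lower in confined than in nonconfined DCs of either genotype, though not the mean of *Cd4* in cPLA_2_ WT DCs. The 4 NK cell markers summed to 113, 125 and 139.5, 119, 126 and 141, 367, 299 and 312, 150.0, 156 and 139, 399.8, 428 and 430.0, and 476, 457 and 405, with 3 of the 4 under 10 in every library and *Klrk1* making up most of the sum. The 6 macrophage markers, led by *Csf1r*, summed to 60389, 57672 and 58356, 60781, 64951 and 62375, 60744, 58595 and 59799.5, 67457, 60975 and 65429.7, 57199.8, 48559.6 and 52496, and 48491, 55577 and 52475. Their sum was lowest with LPS, as was *Csf1r*, whereas the means of *Adgre1* and *Fcgr1* were highest there. None of the markers found was at 0 in every library. The part of other cells in the results on the kinases was not tested, and in bulk RNA fewer cells of a type and less RNA per cell cannot be told apart.

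In cPLA_2_ WT DCs the response to confinement reached all of the group under size factors. Compared with nonconfined cells, 10 of 10 genes were higher and 0 lower at an adjusted p under 0.05 (28.2% and 28.4% of all genes), or 8 higher with the libraries scaled to the same total (3578 genes higher and 7380 lower of all), where *Chuk* turned to -0.027 and *Map3k7* was at 0.087, neither called. The median log2 difference was 1.13 beside -0.0055 over all genes tested. In cPLA_2_ KO DCs the same comparison gave 7 genes higher and 2 lower (22.8% and 23.4% of all genes) with a median of 0.40 beside 0.010. The difference between these responses was itself tested as an interaction, in which 7 genes were lower in cPLA_2_ KO and 1 was higher (15.6% and 10.2% of all genes), with a median of -0.55 beside 0.051. Without confinement the genotypes differed in 1 gene, which was higher in cPLA_2_ KO, and 0 were lower (4.78% and 4.11% of all genes), or 1 higher and 1 lower with the same total per library (4.23% and 5.85%). Once confined, 8 genes were lower in cPLA_2_ KO DCs and 1 was higher (20.6% and 18.8% of all genes), or 7 and 1 with the same total per library (14.6% and 33.6%). With LPS 10 genes were higher and 0 lower (37.2% and 34.3% of all genes), or 8 higher and 1 lower with the same total per library (20.4% and 56.8%). The median was 1.56 beside 0.020. The confinement and LPS comparisons share their nonconfined libraries.

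**Figure D1:**
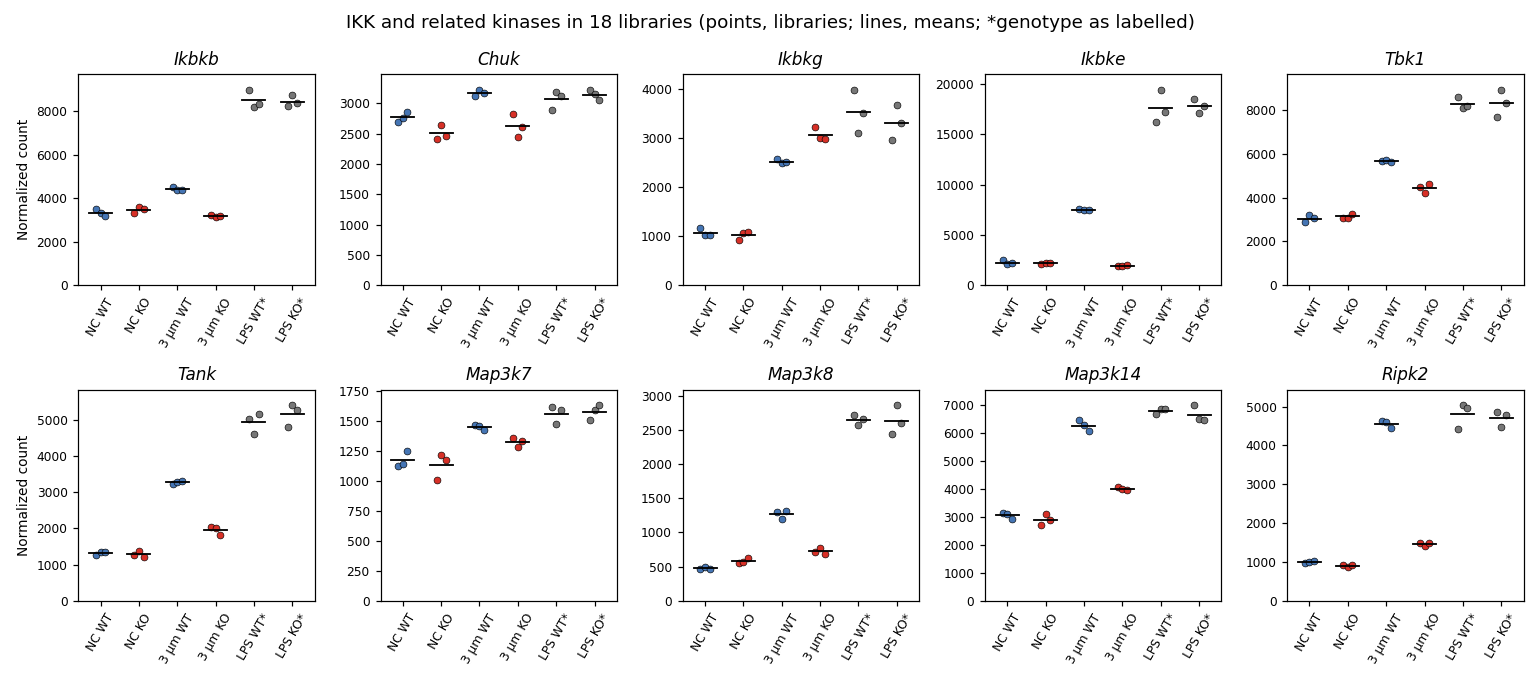
Levels of the 10 genes in each of 18 libraries (points, normalized counts; lines, means of 3 libraries; NC, nonconfined; 3 µm, confined; the asterisk marks LPS groups by label). *Ripk2* lay at 4439.5 to 4634 in confined cPLA_2_ WT DCs and at 1400.1 to 1486 in confined cPLA_2_ KO DCs, whereas *Chuk* stayed between 2410.1 and 3225 over all 18 libraries.

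Among the subunits of the IKK complex, the regulatory one differed most from nonconfined DCs, both with confinement and with LPS. *Ikbkb* (chr8:23149217-23196599, minus strand, on GRCm39 as for all positions of genes given here) encodes IKKβ, the catalytic subunit that drives canonical NF-κB signalling. It was at 3509.7, 3306 and 3188 in nonconfined cPLA_2_ WT DCs and 3321, 3594 and 3489 in nonconfined cPLA_2_ KO DCs, and at 4508, 4380.1 and 4395 in confined cPLA_2_ WT DCs and 3245, 3118 and 3176 in confined cPLA_2_ KO DCs. The 3 confined cPLA_2_ WT libraries lay above all nonconfined ones, whereas the confined cPLA_2_ KO libraries lay below every nonconfined cPLA_2_ KO library and overlapped the nonconfined cPLA_2_ WT range. The log2 difference with confinement was 0.41 (SE 0.048, limma adjusted p = 1.98e-07) in cPLA_2_ WT and -0.12 (SE 0.048, limma adjusted p = 0.0369) in cPLA_2_ KO DCs, and the interaction was -0.53 (SE 0.067, limma adjusted p = 2.37e-06). The small decrease in cPLA_2_ KO DCs lost its call without nonconfined cPLA_2_ KO replicate 2 or 3 (-0.10 and -0.12) and without confined cPLA_2_ KO replicate 2 or 3 (-0.11 and -0.12). It was also lost with no filter (-0.12) and with only the groups compared in the fit (-0.12). With LPS *Ikbkb* reached 8992, 8190.3 and 8353 in the libraries labelled LPS cPLA_2_ WT and 8239, 8752 and 8367 in those labelled LPS cPLA_2_ KO. Every LPS library lay above every library of the other conditions, with a log2 difference from nonconfined DCs of 1.32 (SE 0.034, limma adjusted p = 4.68e-19), or 2.49-fold. With the same total per library *Ikbkb* had 0.18 for confinement in cPLA_2_ WT DCs, -0.16 in cPLA_2_ KO DCs, -0.35 for the interaction and 0.82 for LPS, each called.

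*Chuk* (chr19:44061773-44095918, minus strand) encodes IKKα, which acts in the IKK complex and, downstream of NIK, in noncanonical signalling. It was at 2686, 2761 and 2859.6 in nonconfined cPLA_2_ WT DCs and 2410.1, 2642 and 2467 in nonconfined cPLA_2_ KO DCs, and at 3129.9, 3225 and 3174 in confined cPLA_2_ WT DCs and 2819.5, 2449 and 2619 in confined cPLA_2_ KO DCs. In LPS-treated DCs it was at 2890.4, 3186 and 3124 in the libraries labelled LPS cPLA_2_ WT and 3214, 3148 and 3055 in those labelled LPS cPLA_2_ KO. The confined cPLA_2_ WT libraries and the LPS libraries lay above all nonconfined libraries and overlapped each other, and the confined cPLA_2_ KO libraries spread across both nonconfined groups. The log2 difference with confinement was 0.20 (SE 0.055, limma adjusted p = 0.00376) in cPLA_2_ WT DCs, which turned to -0.027 with the same total per library, and 0.068 (SE 0.055, limma adjusted p = 0.329) in cPLA_2_ KO DCs, which was not called. Its interaction, -0.13 (SE 0.077, limma adjusted p = 0.237), was not called either. LPS gave 0.24 (SE 0.039, limma adjusted p = 1.2e-05), and this direction too turned with the same total per library, to -0.26, so that the increase of *Chuk* depended on the scaling in both comparisons.

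*Ikbkg* (chrX:73436897-73500145, plus strand) encodes NEMO, the scaffold that binds ubiquitin chains and brings the complex to its activators. It was at 1166, 1019.9 and 1033 in nonconfined cPLA_2_ WT DCs and 919.9, 1068 and 1078 in nonconfined cPLA_2_ KO DCs, and at 2574, 2486 and 2506 in confined cPLA_2_ WT DCs and 3225, 3016 and 2982 in confined cPLA_2_ KO DCs. Both confined groups lay above all nonconfined libraries. The confined cPLA_2_ KO libraries lay above the confined cPLA_2_ WT ones, an order found for no other member of the group. *Ikbkg* is also the only member on the X chromosome, and sex went with genotype in these groups. The log2 difference with confinement was 1.24 (SE 0.086, limma adjusted p = 7.11e-11) in cPLA_2_ WT and 1.59 (SE 0.086, limma adjusted p = 3.09e-12) in cPLA_2_ KO DCs. The interaction was 0.36 (SE 0.12, limma adjusted p = 0.036). It was not called with TMM scaling (0.32), in edgeR (0.32), with a replicate block (0.36), with no filter (0.36) or without any 1 of 7 libraries, namely nonconfined cPLA_2_ WT replicate 1 (0.29), nonconfined cPLA_2_ KO replicate 1 (0.28), confined cPLA_2_ WT replicates 1, 2 and 3 (0.37, 0.35 and 0.35) and confined cPLA_2_ KO replicates 1 and 2 (0.32 and 0.37). With LPS it was at 3991, 3108 and 3519 in the libraries labelled LPS cPLA_2_ WT and 2959, 3687 and 3305 in those labelled LPS cPLA_2_ KO, which overlapped the confined cPLA_2_ KO range and lay above all confined cPLA_2_ WT libraries. The difference from nonconfined DCs was 1.71 (SE 0.061, limma adjusted p = 1.94e-16). With the same total per library the interaction of *Ikbkg* was 0.54 and called, with 1.01 and 1.55 for confinement and 1.21 for LPS. *Ikbkg* lies across *G6pdx*, a gene of the pentose phosphate pathway on the opposite strand, with 526 exonic bases in common, and across *Fam3a* with 204. Although the libraries were strand-specific, whether the counting used strand is not given in the sources used here, so reads of the shared bases cannot be told apart. *G6pdx* was at 8693, 8483 and 8379 in nonconfined cPLA_2_ WT DCs and 8812, 9596 and 9007 in nonconfined cPLA_2_ KO DCs, and at 10540.5, 10268 and 10312 in confined cPLA_2_ WT DCs and 14224, 12818 and 13797 in confined cPLA_2_ KO DCs. It was highest in confined cPLA_2_ KO DCs among these groups, with log2 differences of 0.28 (SE 0.051, limma adjusted p = 5.54e-05) in the cPLA_2_ WT and 0.57 (SE 0.051, limma adjusted p = 6.43e-09) in the cPLA_2_ KO genotype. The interaction of *G6pdx* was 0.29 (SE 0.071, limma adjusted p = 0.00415), and LPS gave 0.64 (SE 0.036, limma adjusted p = 5.67e-13). For *Fam3a* the values were -0.23 and -0.11 for confinement and 0.12 for the interaction, none called, and -0.29 for LPS, which was called. The part of either gene in the level of *Ikbkg* was not tested.

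*Ikbke* (chr1:131182103-131207303, minus strand) encodes IKKε, the inducible member of the IKK-related pair, and of the 10 genes it separated the genotypes most under confinement. It was at 2466, 2054 and 2229.7 in nonconfined cPLA_2_ WT DCs and 2071, 2168 and 2246 in nonconfined cPLA_2_ KO DCs, and at 7521, 7502 and 7443 in confined cPLA_2_ WT DCs and 1931, 1916 and 1957 in confined cPLA_2_ KO DCs. The confined cPLA_2_ WT libraries were far above all others of these groups, and the confined cPLA_2_ KO libraries lay below every nonconfined library. In cPLA_2_ WT DCs the log2 difference was 1.74 (SE 0.062, limma adjusted p = 8.49e-16), or 3.34-fold, and in cPLA_2_ KO DCs it was -0.16 (SE 0.062, limma adjusted p = 0.0422). The latter call was lost without nonconfined cPLA_2_ KO replicate 2 or 3 (-0.16 and -0.13), without confined cPLA_2_ KO replicate 1, 2 or 3 (-0.16, -0.15 and -0.17), with no filter (-0.16) and with a replicate block (-0.16), while the interaction was -1.90 (SE 0.088, limma adjusted p = 2.28e-13) and kept its call without any single library. With LPS the level rose to 16185, 19409 and 17213 in the libraries labelled LPS cPLA_2_ WT and 18502, 17152 and 17786 in those labelled LPS cPLA_2_ KO. All 6 lay above all 12 other libraries, at 8.03-fold the nonconfined level and a log2 difference of 3.00 (SE 0.044, limma adjusted p = 2.94e-23), the largest among the 10 genes in this comparison with either scaling by size factors or by the same total. The same-total values were 1.51 and -0.20 for confinement, -1.71 for the interaction and 2.51 for LPS.

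*Tbk1* (chr10:121382360-121422699, minus strand), the constitutive partner of *Ikbke*, encodes the kinase best known for phosphorylating IRF3 downstream of STING, MAVS and TRIF. It was at 2876, 3205 and 3050.3 in nonconfined cPLA_2_ WT DCs and 3071, 3081 and 3262 in nonconfined cPLA_2_ KO DCs, and at 5666, 5719 and 5643 in confined cPLA_2_ WT DCs and 4505, 4208 and 4618 in confined cPLA_2_ KO DCs. Confined libraries of both genotypes lay above all nonconfined ones, and the confined cPLA_2_ WT libraries lay above the confined cPLA_2_ KO ones. The log2 difference was 0.90 (SE 0.054, limma adjusted p = 6.11e-12) in cPLA_2_ WT and 0.50 (SE 0.054, limma adjusted p = 1.51e-07) in cPLA_2_ KO DCs, with an interaction of -0.40 (SE 0.077, limma adjusted p = 0.000443). With LPS the libraries were at 8599, 8089 and 8199 in the libraries labelled LPS cPLA_2_ WT and 7671, 8925 and 8309 in those labelled LPS cPLA_2_ KO, above all others, and the difference from nonconfined DCs was 1.42 (SE 0.038, limma adjusted p = 1.31e-18). Scaled to the same total, *Tbk1* gave 0.68 and 0.47 for confinement, -0.21 for the interaction and 0.93 for LPS, each called.

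*Tank* (chr2:61408901-61484520, plus strand) encodes an adaptor that binds TBK1, IKKε and TRAF proteins. Its levels were 1273, 1339.6 and 1354 in nonconfined cPLA_2_ WT DCs and 1261, 1379.6 and 1208 in nonconfined cPLA_2_ KO DCs, and 3235, 3290.2 and 3320.2 in confined cPLA_2_ WT DCs and 2044, 2009 and 1832 in confined cPLA_2_ KO DCs. The groups stood in the same order as for *Tbk1*, with nonconfined lowest, confined cPLA_2_ KO in between and confined cPLA_2_ WT above, and without overlap between these steps. Confinement gave a log2 difference of 1.31 (SE 0.061, limma adjusted p = 6.62e-14) in cPLA_2_ WT and 0.61 (SE 0.061, limma adjusted p = 4.1e-08) in cPLA_2_ KO DCs, with an interaction of -0.70 (SE 0.086, limma adjusted p = 1.75e-06). In LPS libraries it was at 5039, 4623 and 5165 in the libraries labelled LPS cPLA_2_ WT and 4816, 5413 and 5294 in those labelled LPS cPLA_2_ KO, again above all other libraries, at a difference of 1.96 (SE 0.043, limma adjusted p = 3.54e-20). Scaled to the same total, the values of *Tank* were 1.09 and 0.58 for confinement, -0.51 for the interaction and 1.46 for LPS, each called.

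Of the MAP3 kinases, TAK1 hardly moved while TPL2 and NIK did. *Map3k7* (chr4:31964095-32023467, plus strand) encodes TAK1, which activates the IKK complex downstream of TRAF6 and TAB proteins. It was at 1122, 1136 and 1249 in nonconfined cPLA_2_ WT DCs and 1003, 1217 and 1172 in nonconfined cPLA_2_ KO DCs, and at 1463, 1459 and 1426 in confined cPLA_2_ WT DCs and 1359, 1279.6 and 1335 in confined cPLA_2_ KO DCs. The LPS libraries gave 1611, 1475 and 1593 in the libraries labelled LPS cPLA_2_ WT and 1503, 1592 and 1629 in those labelled LPS cPLA_2_ KO. Confined and LPS libraries lay above all nonconfined ones, and the steps were small. The log2 difference with confinement was 0.31 (SE 0.067, limma adjusted p = 0.000458) in cPLA_2_ WT and 0.23 (SE 0.067, limma adjusted p = 0.00741) in cPLA_2_ KO DCs, the latter not called without nonconfined cPLA_2_ KO replicate 1 (0.15), and with LPS it was 0.45 (SE 0.048, limma adjusted p = 2.5e-08). With the same total per library these became 0.087 (not called), 0.20 and -0.048 (not called), so the sign with LPS turned. The interaction of -0.079 (SE 0.095, limma adjusted p = 0.604) was not called.

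*Map3k8* encodes TPL2, the kinase that links IKKβ and NF-κB1 p105 to ERK activation. It was at 468, 498 and 464 in nonconfined cPLA_2_ WT DCs and 545, 569.7 and 623 in nonconfined cPLA_2_ KO DCs, and at 1297, 1198 and 1318 in confined cPLA_2_ WT DCs and 715, 775 and 678 in confined cPLA_2_ KO DCs. Nonconfined cPLA_2_ KO libraries lay above nonconfined cPLA_2_ WT libraries, both confined groups lay higher, and confined cPLA_2_ WT DCs were highest, with no overlap at any step. The log2 difference with confinement was 1.41 (SE 0.071, limma adjusted p = 2.5e-13) in cPLA_2_ WT and 0.32 (SE 0.071, limma adjusted p = 0.000834) in cPLA_2_ KO DCs, and the interaction was -1.09 (SE 0.100, limma adjusted p = 2.03e-08). *Map3k8* was the 1 gene that differed between the genotypes without confinement, by 0.28 (SE 0.071, limma adjusted p = 0.0167), and it lost that call without nonconfined cPLA_2_ WT replicate 1 or 3 (0.27 and 0.26) or nonconfined cPLA_2_ KO replicate 3 (0.23), and with only the groups compared in the fit (0.28). With LPS it was at 2716, 2577 and 2656 in the libraries labelled LPS cPLA_2_ WT and 2435, 2859 and 2593 in those labelled LPS cPLA_2_ KO. Each of these exceeded every confined and nonconfined library, and the difference from nonconfined DCs was 2.33 (SE 0.050, limma adjusted p = 2.34e-20), or 5.02-fold. Same-total values of *Map3k8* were 1.19 and 0.28 for confinement, -0.90 for the interaction and 1.83 for LPS, each called. A noncoding gene on the opposite strand, *4833419F23Rik*, shares 612 exonic bases with it and averaged 87.6 normalized counts. Other noncoding genes share exonic bases with *Ikbkb* (519), *Ikbke* (175 and 159), *Tbk1* (26), *Map3k14* (462, and 135 on the same strand) and *Ripk2* (113). Their levels are not given here.

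*Map3k14* (chr11:103110590-103158572, minus strand) encodes NIK, the kinase that activates IKKα in noncanonical signalling and is kept low by degradation of its protein. Its levels were 3148, 3087 and 2937 in nonconfined cPLA_2_ WT DCs and 2698, 3084 and 2878 in nonconfined cPLA_2_ KO DCs, and 6445, 6270.1 and 6053 in confined cPLA_2_ WT DCs and 4064, 3976 and 3948 in confined cPLA_2_ KO DCs. With LPS they were 6685, 6843 and 6850.0 in the libraries labelled LPS cPLA_2_ WT and 6984, 6507 and 6450.1 in those labelled LPS cPLA_2_ KO. The confined cPLA_2_ WT libraries lay just below the LPS libraries and far above the confined cPLA_2_ KO ones, which in turn lay above all nonconfined libraries. Confinement gave 1.03 (SE 0.049, limma adjusted p = 1.04e-13) in cPLA_2_ WT and 0.47 (SE 0.049, limma adjusted p = 8.43e-08) in cPLA_2_ KO DCs on the log2 scale, with an interaction of -0.56 (SE 0.069, limma adjusted p = 1.89e-06). The difference between LPS and nonconfined DCs was 1.18 (SE 0.035, limma adjusted p = 5.98e-18). For *Map3k14* the same total gave 0.81 and 0.44 for confinement, -0.37 for the interaction and 0.68 for LPS, each called.

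*Ripk2* (chr4:16122742-16163643, minus strand) encodes the kinase that carries signals from NOD1 and NOD2 to TAK1 and the IKK complex. It was at 971, 988 and 1019 in nonconfined cPLA_2_ WT DCs and 911, 856 and 921 in nonconfined cPLA_2_ KO DCs, and at 4634, 4607 and 4439.5 in confined cPLA_2_ WT DCs and 1478, 1400.1 and 1486 in confined cPLA_2_ KO DCs. In LPS-treated DCs it was at 4435, 5036 and 4961 in the libraries labelled LPS cPLA_2_ WT and 4852, 4477 and 4781 in those labelled LPS cPLA_2_ KO. The confined cPLA_2_ WT libraries overlapped the LPS libraries, whereas the confined cPLA_2_ KO libraries lay well below both and above all nonconfined ones. It had the largest increase of the 10 genes with confinement in cPLA_2_ WT DCs under size factors, the same total and TMM scaling alike, at 4.59-fold and a log2 difference of 2.20 (SE 0.054, limma adjusted p = 1.33e-18). In cPLA_2_ KO DCs the difference was 0.70 (SE 0.054, limma adjusted p = 8.91e-10), and the interaction was -1.50 (SE 0.077, limma adjusted p = 1.14e-12). LPS gave 5.04-fold, a difference of 2.33 (SE 0.038, limma adjusted p = 1.9e-22). The corresponding values with the same total were 1.97 and 0.66 for confinement, -1.31 for the interaction and 1.84 for LPS, each called.

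**Figure D2:**
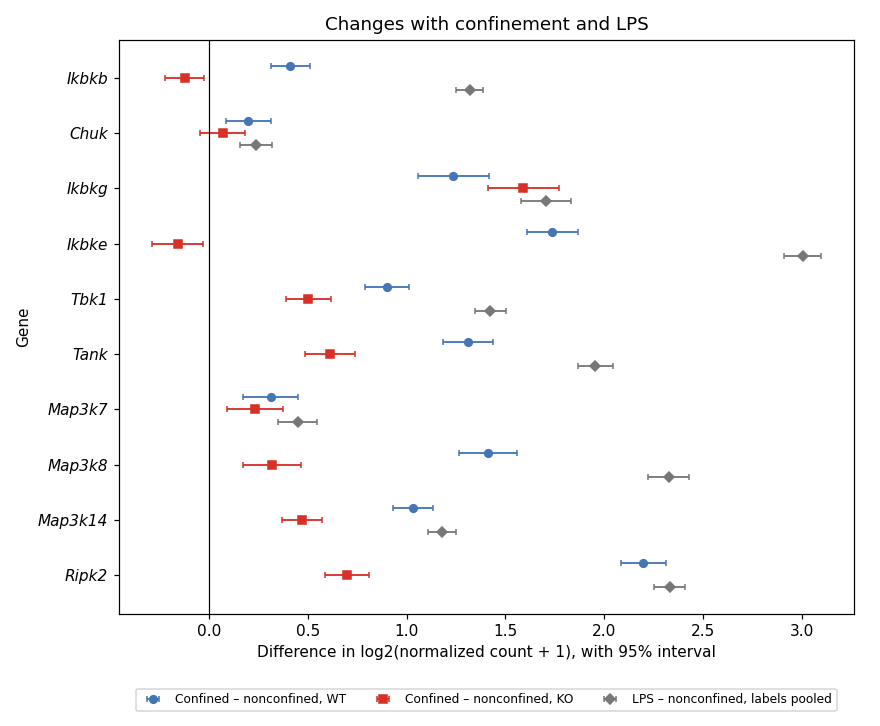
Differences in log2(normalized count + 1) between confined and nonconfined DCs of each genotype and between LPS-treated and nonconfined DCs, with genotype labels pooled for LPS. Points are estimates over 3 against 3 libraries, or 6 against 6 for LPS, whose libraries lay close in pairs across the labels. Bars are 95% intervals from limma, with all libraries treated as separate. *Ikbke* stood at 1.74 for the cPLA_2_ WT and -0.16 for the cPLA_2_ KO genotype, *Ikbkg* at 1.24 and 1.59, and with the same total per library the points of *Chuk* turned to -0.027 for confinement in cPLA_2_ WT DCs and -0.26 for LPS and that of *Map3k7* to -0.048 for LPS.

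The genotypes were also compared within a treatment. In confined DCs the lower level in cPLA_2_ KO was largest for *Ikbke*, at -1.95 (SE 0.062, limma adjusted p = 1.7e-16) or 0.258 of the cPLA_2_ WT level, and *Ripk2*, at -1.65 (SE 0.054, limma adjusted p = 2.62e-16) or 0.319 of it. *Map3k8*, *Tank* and *Map3k14* followed with log2 differences of -0.81, -0.74 and -0.65, and *Ikbkb*, *Tbk1* and *Chuk* with -0.48, -0.35 and -0.27, of which that of *Chuk* was not called with the same total per library (-0.12). *Map3k7* at -0.13 (SE 0.067, limma adjusted p = 0.137) was not called, and with the same total per library its sign turned (0.025). *Ikbkg* was the 1 gene higher in cPLA_2_ KO, by 0.28 (SE 0.086, limma adjusted p = 0.0119), a call lost without confined cPLA_2_ KO replicate 1 (0.25). Without confinement the 9 genes that were not called had log2 differences between -0.15 and 0.057, *Ripk2* being called at -0.18 with the same total per library and *Chuk* at -0.18 without nonconfined cPLA_2_ KO replicate 2.

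The libraries labelled LPS cPLA_2_ WT and LPS cPLA_2_ KO did not differ in any of the 10 genes by limma, with 0 higher and 0 lower (0% and 0% of all genes) and log2 differences between -0.092 and 0.066. Of all 17875 genes edgeR called 0 and DESeq2 called 0, while 890 had an unadjusted p under 0.05 in limma. Without the 2 libraries that lacked Y-linked reads, 19 genes were called and none of the 10 was among them. LPS against nonconfined DCs kept 10 of 10 calls without these libraries (6550 of all genes higher and 6011 lower), at 2.95 for *Ikbke*, 2.30 for *Ripk2*, 2.36 for *Map3k8*, 2.00 for *Tank* and 1.79 for *Ikbkg*. The other values without them were 1.46 for *Tbk1*, 1.34 for *Ikbkb*, 1.16 for *Map3k14*, 0.49 for *Map3k7* and 0.21 for *Chuk*. All 10 were also called when each label was compared with the nonconfined genotype of the same name. Of all genes 5965 were higher and 5258 lower for the cPLA_2_ WT label, and 5972 and 5384 for the cPLA_2_ KO label. The LPS libraries lay close in pairs across the labels, so these are not separate tests.

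Confined DCs were then compared with LPS-treated DCs. Confined cells were collected 4 h later and LPS-treated cells on the next day, so stimulus and time cannot be told apart in these comparisons of either genotype. In confined cPLA_2_ WT DCs 7 genes were lower than with LPS and 0 higher (29.8% and 24.5% of all genes), whereas with the same total per library 5 were lower and 4 higher (15.0% and 45.1% of all genes). *Ikbke*, *Map3k8* and *Ikbkb* were lower by -1.24 (SE 0.054, limma adjusted p = 3.67e-14), -1.05 (SE 0.061, limma adjusted p = 4.28e-12) and -0.94 (SE 0.041, limma adjusted p = 4.11e-14), and they kept this direction and call with the same total per library (-0.95, -0.76 and -0.65). *Tank*, *Tbk1* and *Ikbkg* differed by -0.62, -0.55 and -0.44, or -0.33, -0.26 and -0.15 with the same total, the last not called. *Map3k14*, at -0.10 (SE 0.043, limma adjusted p = 0.0462), lost its call without confined cPLA_2_ WT replicate 2 or 3 (-0.10 and -0.080), without LPS cPLA_2_ WT replicate 2 or 3 (-0.10 and -0.10), without LPS cPLA_2_ KO replicate 1 (-0.085), with TMM scaling (-0.031), in edgeR (-0.031) and DESeq2 (-0.065), with a replicate block (-0.10), with no filter (-0.10) and without both libraries that lacked Y-linked reads (-0.082). *Ripk2* (-0.059), *Map3k7* (-0.11) and *Chuk* (0.035) were not called, and with the same total they and *Map3k14* were higher in confined cPLA_2_ WT DCs (0.23, 0.18, 0.32 and 0.19). Without the libraries lacking Y-linked reads *Map3k7* was called lower (-0.15), and 7 of 10 were called as before in number.

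In confined cPLA_2_ KO DCs 9 genes were lower than with LPS and 0 higher (32.5% and 30.3% of all genes), or 7 lower and 3 higher with the same total per library (16.7% and 56.6% of all genes). The differences were -3.19 (SE 0.054, limma adjusted p = 6.65e-22) for *Ikbke*, -1.87 (SE 0.061, limma adjusted p = 7.41e-17) for *Map3k8* and -1.71 (SE 0.047, limma adjusted p = 3.04e-18) for *Ripk2*. They were -1.41 for *Ikbkb*, -1.37 for *Tank*, -0.90 for *Tbk1* and -0.75 for *Map3k14*, and these 7 genes kept the direction and the call with the same total per library. *Map3k7* and *Chuk*, at -0.24 and -0.24, turned to 0.20 and 0.20 with it. *Ikbkg* at -0.15 (SE 0.075, limma adjusted p = 0.0855) was not called, turned to 0.29 with the same total per library, and was called lower without LPS cPLA_2_ WT replicate 2 (-0.20), without LPS cPLA_2_ KO replicate 1 (-0.19) and without both (-0.24), each of which made 10 of 10 lower.

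The totals of normalized counts differed between conditions, from 33981771 in nonconfined cPLA_2_ WT replicate 2 to 49506497 in LPS cPLA_2_ WT replicate 1. Scaling each library to the same total moved the median log2 difference of all genes from -0.0055 to -0.23 for confinement in cPLA_2_ WT DCs, from 0.051 to 0.24 for the interaction and from 0.041 to 0.19 between confined genotypes. It moved this median from 0.020 to -0.46 for LPS, from -0.014 to 0.27 for confined cPLA_2_ WT against LPS and from 0.027 to 0.46 for confined cPLA_2_ KO against LPS. The share of calls that were higher moved from 49.8% to 32.7% for confinement in cPLA_2_ WT DCs, from 39.5% to 70.7% for the interaction, from 53.8% to 42.0% between nonconfined genotypes and from 47.7% to 69.7% between confined genotypes. It moved from 52.0% to 26.4% for LPS, from 45.2% to 75.0% for confined cPLA_2_ WT against LPS and from 48.2% to 77.2% for confined cPLA_2_ KO against LPS. Set against the median of all genes under the same total, the 10 genes had medians of 0.91 beside -0.23 for confinement in cPLA_2_ WT DCs, -0.36 beside 0.24 for the interaction and 1.07 beside -0.46 for LPS. The interaction kept 7 genes lower and 1 higher under this scaling, with *Chuk* (0.058) and *Map3k7* (0.11) changing sign without a call.

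Levels of different genes were compared per kilobase of the longest annotated transcript, as means ± SD of 3 libraries. In nonconfined cPLA_2_ WT DCs *Tbk1* was the most abundant of the 10 at 896 ± 48.31 normalized counts per kb. It was followed by *Chuk* at 701 ± 22.04 and *Map3k14* at 683 ± 24.19, whose ranges of mean ± SD overlapped, and then by *Ikbkb* at 476 ± 23.26 and *Ikbke* at 384 ± 35.27. *Map3k8* at 152 ± 5.96 and *Ikbkg* at 108 ± 8.14 were lowest. In confined cPLA_2_ WT DCs *Tbk1* remained first at 1671 ± 11.41, with *Map3k14* at 1397 ± 43.90, *Ikbke* at 1279 ± 6.90 and *Ripk2* at 1088 ± 25.19 next. In confined cPLA_2_ KO DCs *Tbk1* at 1308 ± 62.44 was again first, while *Ikbke* was at 330.4 ± 3.48 and *Ripk2* at 347 ± 11.37. With LPS *Ikbke* took the first place, at 3006 ± 281.31 in the libraries labelled cPLA_2_ WT and 3042 ± 115.38 in those labelled cPLA_2_ KO, ahead of *Tbk1* at 2442 ± 78.99 and 2444 ± 184.54. These first places were the same with the summed exon length in place of the longest transcript. Other places changed with that length, as *Ikbkb* went from place 4 to 6 in nonconfined cPLA_2_ WT DCs and so behind *Ikbke*, from 6 to 9 in confined cPLA_2_ WT DCs, from 4 to 9 in confined cPLA_2_ KO DCs and from 4 to 8 in both LPS groups, and *Ripk2* passed *Ikbke* in confined cPLA_2_ WT DCs.

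The adaptors and ubiquitin machinery upstream of the IKK complexes were described by a list of 42 genes. In cPLA_2_ WT DCs 27 were higher and 8 lower with confinement, with a median log2 difference of 0.41 beside -0.0055 over all genes, or 22 higher and 12 lower with the same total per library. In cPLA_2_ KO DCs 19 were higher and 10 lower (18 and 10 with the same total), and in the interaction 3 were higher and 21 lower (7 and 17). The shares of all genes higher and lower were 28.2% and 28.4%, 22.8% and 23.4%, and 10.2% and 15.6% in these comparisons. With the same total, 3578 of all genes were higher and 7380 lower, 3713 and 4627, and 4741 and 1962, so that all genes together turned in the interaction. *Tnfaip3*, the gene for the ubiquitin-editing inhibitor A20, was at 1199, 1161 and 1153 in nonconfined cPLA_2_ WT DCs and 1149, 1346 and 1286 in nonconfined cPLA_2_ KO DCs, and at 24004, 23406 and 23736 in confined cPLA_2_ WT DCs and 2447, 2492 and 2639 in confined cPLA_2_ KO DCs. It rose in both genotypes and far more in cPLA_2_ WT, by 4.34 (SE 0.065, limma adjusted p = 2.44e-22) against 1.01 (SE 0.065, limma adjusted p = 4.49e-11), with an interaction of -3.33 (SE 0.091, limma adjusted p = 2.49e-17). *Traf1*, an NF-κB target that modulates TNF receptor signalling, rose by 2.65 (SE 0.069, limma adjusted p = 3.39e-18) in cPLA_2_ WT DCs and had an interaction of -2.03 (SE 0.097, limma adjusted p = 4.06e-13). *Nod2*, the muramyl dipeptide sensor that signals through RIPK2, had the next largest increase after *Tnfaip3* in cPLA_2_ KO DCs, 0.97 (SE 0.066, limma adjusted p = 1.17e-10). *Card9*, the adaptor of C-type lectin receptors, was at 8725, 7957 and 8380.3 in nonconfined cPLA_2_ WT DCs and 10289, 9239 and 10109.7 in nonconfined cPLA_2_ KO DCs, and at 3291, 2818 and 2925 in confined cPLA_2_ WT DCs and 5078, 4920.1 and 4741 in confined cPLA_2_ KO DCs. It fell in both genotypes without overlap, with differences of -1.47 (SE 0.076, limma adjusted p = 4.6e-13) in cPLA_2_ WT and -1.01 (SE 0.076, limma adjusted p = 6.42e-10) in cPLA_2_ KO DCs, with an interaction of 0.47 (SE 0.11, limma adjusted p = 0.00247). *Sting1*, the adaptor of cytosolic DNA sensing, changed by -0.75 (SE 0.060, limma adjusted p = 6.75e-10) and -0.63 (SE 0.060, limma adjusted p = 2.31e-08), and the difference between these was 0.12 (SE 0.085, limma adjusted p = 0.338) and not called. *Irak1*, the kinase downstream of MyD88, had a positive interaction of 0.46 (SE 0.085, limma adjusted p = 0.000315), with -0.38 for the cPLA_2_ WT and 0.072 for the cPLA_2_ KO genotype, the latter not called.

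With LPS 32 of the 42 were higher and 8 lower, with a median of 0.76 beside 0.020 over all genes, or 24 higher and 15 lower with the same total per library (20.4% and 56.8% of all genes). Of all genes 37.2% were higher and 34.3% lower, or 20.4% and 56.8% with the same total. Without the libraries lacking Y-linked reads 32 of the 42 were higher and 9 lower, with log2 differences of 5.002 for *Tnfaip3*, 3.40 for *Traf1*, -1.75 for *Card9* and -0.99 for *Mavs*. *Tnfaip3* (4.94) and *Traf1* (3.35) had the largest increases, and *Card9* (-1.83) and *Mavs* (-0.85) the largest decreases, among those called at a mean of at least 100 normalized counts. *Mavs*, the adaptor of cytosolic RNA sensing, was at 805, 719.7 and 779 in nonconfined cPLA_2_ WT DCs and 693, 765 and 720.1 in nonconfined cPLA_2_ KO DCs, and at 775, 682 and 810.2 in confined cPLA_2_ WT DCs and 630.2, 639 and 672 in confined cPLA_2_ KO DCs. The LPS libraries gave 360.2, 513 and 382 in the libraries labelled LPS cPLA_2_ WT and 484, 364 and 399.7 in those labelled LPS cPLA_2_ KO. It was lower in all LPS libraries than in any other, with a log2 difference of -0.85 (SE 0.081, limma adjusted p = 4.43e-09), and confinement gave no call in either genotype, at -0.025 (SE 0.11, limma adjusted p = 0.872) and -0.17 (SE 0.11, limma adjusted p = 0.253).

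A list of 14 genes for substrates, the NF-κB and IκB family, IRF3, IRF7 and the MAP2 kinases below TPL2, was read next. With confinement in cPLA_2_ WT DCs 12 were higher and 1 lower, with a median of 1.88 beside -0.0055 over all genes, or 12 and 2 with the same total per library. In cPLA_2_ KO DCs 9 were higher and 2 lower, and in the interaction 12 were lower and 0 higher, each count being the same with the same total. Of all genes 28.2% were higher and 28.4% lower in cPLA_2_ WT DCs, 22.8% and 23.4% in cPLA_2_ KO DCs, and 10.2% and 15.6% in the interaction, or in numbers 3578 and 7380, 3713 and 4627, and 4741 and 1962 with the same total. *Nfkbiz*, the gene for the nuclear coactivator IκBζ, was at 331, 283 and 284 in nonconfined cPLA_2_ WT DCs and 258, 303 and 307 in nonconfined cPLA_2_ KO DCs, and at 16332, 16112 and 16025 in confined cPLA_2_ WT DCs and 1000.3, 1025 and 969.6 in confined cPLA_2_ KO DCs. The 3 confined cPLA_2_ WT libraries stood far above all others of these groups, and the confined cPLA_2_ KO libraries stood above the nonconfined ones. The differences were 5.75 (SE 0.067, limma adjusted p = 3.12e-24) in cPLA_2_ WT and 1.79 (SE 0.067, limma adjusted p = 7.56e-15) in cPLA_2_ KO DCs, with an interaction of -3.97 (SE 0.094, limma adjusted p = 3.33e-18). *Bcl3*, another nuclear IκB protein, had the second largest increase in cPLA_2_ WT DCs, 2.83 (SE 0.049, limma adjusted p = 3.28e-21), and *Rel*, the gene for c-Rel, the second largest in cPLA_2_ KO DCs, 1.07 (SE 0.088, limma adjusted p = 2.55e-09). *Irf7*, a substrate of TBK1 and IKKε, moved in opposite directions. It was at 3798, 3627 and 3565 in nonconfined cPLA_2_ WT DCs and 4342, 4056 and 4463 in nonconfined cPLA_2_ KO DCs, and at 9564, 8741 and 9009 in confined cPLA_2_ WT DCs and 1719, 1745 and 1803 in confined cPLA_2_ KO DCs. The LPS libraries gave 28576, 30646 and 28467 in the libraries labelled LPS cPLA_2_ WT and 29649, 28461 and 29071 in those labelled LPS cPLA_2_ KO. Confined cPLA_2_ WT libraries lay above, and confined cPLA_2_ KO libraries below, every nonconfined library, at 1.31 (SE 0.047, limma adjusted p = 7.58e-16) and -1.29 (SE 0.047, limma adjusted p = 5.11e-15), with an interaction of -2.60 (SE 0.066, limma adjusted p = 9.14e-18). *Irf3* was slightly lower with confinement, at -0.17 (SE 0.071, limma adjusted p = 0.0422) in cPLA_2_ WT and -0.26 (SE 0.071, limma adjusted p = 0.0051) in cPLA_2_ KO DCs. The former lost its call with no filter (-0.17), in edgeR (-0.15), with TMM scaling (-0.15) and without nonconfined cPLA_2_ WT replicate 1 or 3 (-0.18 and -0.13) or confined cPLA_2_ WT replicate 1 or 2 (-0.18 and -0.12). With LPS 13 of 14 were higher and 0 lower, or 12 and 2 with the same total, led by *Nfkbiz* (63.8-fold) and *Nfkbia* (8.23-fold), the gene for IκBα. The all-gene shares were 37.2% and 34.3%, or 20.4% and 56.8% with the same total per library. Without the libraries lacking Y-linked reads 14 were higher and 0 lower, with log2 differences of 6.03 for *Nfkbiz* and 3.09 for *Nfkbia*.

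The patterns of the 10 genes over the 18 libraries were compared by Pearson's r of the log2 values, as a description of libraries that fall into 6 conditions. *Map3k14* and *Ripk2* (r = 0.991) and *Tbk1* and *Tank* (r = 0.990) were most alike, and *Chuk* and *Ikbkg* (r = 0.578) least. Among 10554 other genes with a mean of at least 100, those most like *Ikbke* were *Ebi3* (0.997), *Cd40* (0.997) and *Parp10* (0.997), and those most like *Ripk2* were *Cd80* (0.998), *B3gnt5* (0.998) and *Bcl3* (0.997). The nearest to *Map3k8* were *Cfb* (0.999), *Cdc42ep2* (0.997) and *Ch25h* (0.996), to *Map3k14* *Rel* (0.998), *N4bp1* (0.995) and *Ube2j1* (0.995), and to *Ikbkb* *Uba1* (0.996), *Map2k1* (0.996) and *Swap70* (0.996). For *Tbk1* they were *Pafah1b1* (0.997), *Dram1* (0.996) and *Gnai3* (0.995), and for *Tank* *Skil* (0.997), *Acod1* (0.996) and *Rbbp8* (0.995). *Ikbkg* had other neighbours, *Mt1* (0.991), *Piwil2* (0.991) and *Me1* (0.990). The genes that moved least had the lowest values, with *Mef2a* (0.972), *Larp4b* (0.969) and *Gpatch2l* (0.967) nearest to *Map3k7* and *Srp72* (0.955), *Ptch1* (0.941) and *Nol4l* (0.930) nearest to *Chuk*.

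Promoter windows of the genes were searched for motifs. RefSeq windows (GRCm38.p6) were matched by symbol for 7 of the 10 genes, with 13 windows, and *Ikbkb*, *Map3k8* and *Ripk2* had no entry. On both strands the AP-1 motif TGANTCA was found in 6 of the 13 windows (of *Ikbke*, *Tank* and *Ikbkg*) beside 7.81% of all 32851 windows. The NF-κB decamer was found in 5 of 13 (of *Tank* and *Map3k7*) beside 8.46%, the GAS motif TTCNNNGAA in 1 (of *Chuk*) beside 8.30%, the ISRE core GAAANNGAA in 0 beside 8.56%, and the cAMP response element TGACGTCA in 0 beside 1.79%. Windows of the same gene can overlap, so these counts are not of separate sequences. The stretches from 150 bases before to 10 bases from the start are shown for *Ikbke* and *Tank*, which rose strongly in confined cPLA_2_ WT DCs, and for *Map3k7*, which hardly moved, with motif matches in capitals. By exact match to GRCm39 they lie at chr1:131207292-131207451 on the minus strand, chr2:61423291-61423450 on the plus strand and chr4:31963957-31964116 on the plus strand, each at a start given by RefSeq. The stretch of *Tank* lies inside the gene as placed above, at 1 of 4 starts, and the 2 windows at its outer starts hold the NF-κB decamer but not TGANTCA.
Ikbke: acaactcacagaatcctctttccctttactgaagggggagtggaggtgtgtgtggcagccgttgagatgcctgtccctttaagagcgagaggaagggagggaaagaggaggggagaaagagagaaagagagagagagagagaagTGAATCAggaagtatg
Tank: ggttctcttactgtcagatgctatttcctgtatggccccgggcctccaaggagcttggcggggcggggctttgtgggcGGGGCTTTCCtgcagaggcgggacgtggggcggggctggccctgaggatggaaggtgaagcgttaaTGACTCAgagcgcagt
Map3k7: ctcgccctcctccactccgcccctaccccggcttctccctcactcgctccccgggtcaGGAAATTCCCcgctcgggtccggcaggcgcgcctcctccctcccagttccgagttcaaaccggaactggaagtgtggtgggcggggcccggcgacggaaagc
The capitals mark TGANTCA in *Ikbke* and at the start in *Tank*, where it begins 6 bases before the start, and the NF-κB decamer in *Tank*, 72 bases before the start, and in *Map3k7*, 92 bases before it. A match describes these letters only. The NF-κB decamer was found both in *Tank*, which rose strongly, and in *Map3k7*, which hardly moved. TGANTCA was not found in the windows of *Map3k7*, *Chuk*, *Tbk1* and *Map3k14*. Of these, *Tbk1* and *Map3k14* rose with confinement in cPLA_2_ WT DCs (log2 differences of 0.90 and 1.03) and had no NF-κB decamer either.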

How the data were processed

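The authors mapped reads with STAR 2.7.5a to mm39, counted genes with featureCounts 1.5.0 on FAST DB annotation, and deposited a signal table of gene counts divided by DESeq2 size factors, treated here as normalized counts. Multiplying each library by 1 factor gave whole reads for 100.0% of values within 1e-06. Genes reaching 10 normalized counts in 3 or more libraries were fitted on log2(value + 1) with limma 3.58.1 in R 4.3.3 (trend, 1 mean per condition, 18 libraries, 9 comparisons), with Benjamini-Hochberg adjustment over all 17875 genes tested and calls at an adjusted p under 0.05 with no fold threshold. edgeR 4.0.16 and DESeq2 1.42.0 on the recovered reads, other scalings, filters and pseudocounts, a replicate block and single libraries left out were alternatives, and the omission of the 2 doubtful LPS libraries was added after seeing the data. The members and lists were chosen with earlier results of these data known. Named from the lists were the 2 largest increases and decreases among calls at a mean of at least 100, and for each member the 3 most correlated genes. *Acot1*, *G6pdx* and *Fam3a* were added after values were seen.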

Additional observations from a re-analysis of the deposited data

Results flagged for a closer look

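The response to confinement differed between the genotypes, by the interaction of confinement and genotype in limma, for 8 of the 10 genes, 7 lower and 1 higher (15.6% and 10.2% of all genes). The log2 response in cPLA_2_ KO DCs minus that in cPLA_2_ WT DCs was -1.90 for *Ikbke*, -1.50 for *Ripk2*, -1.09 for *Map3k8*, -0.70 for *Tank*, -0.56 for *Map3k14*, -0.53 for *Ikbkb* and -0.40 for *Tbk1*, and 0.36 for *Ikbkg*. The call of *Ikbkg* was lost with TMM scaling, in edgeR, with a replicate block, with no filter and without any 1 of 7 of the 12 libraries compared, and kept with the same total per library (0.54). The genes named from the lists were chosen by their calls in this same test, and their values were -3.33 for *Tnfaip3*, -2.03 for *Traf1*, 0.47 for *Card9*, 0.46 for *Irak1*, -3.97 for *Nfkbiz* and -2.60 for *Irf7*.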

How the results depend on the processing

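Over 1680 recomputed log2 differences of the 10 genes in 9 comparisons, 1594 kept direction and side of the threshold, 44 lost a call, 7 gained one, 26 changed sign without a call before or after, and 9 changed sign with a call before or after, all of the 9 with the same total per library. These 9 were *Chuk* (-0.027) for confinement in cPLA_2_ WT DCs, *Chuk* (-0.26) and *Map3k7* (-0.048) for LPS, *Map3k7* (0.18), *Map3k14* (0.19) and *Ripk2* (0.23) for confined cPLA_2_ WT against LPS, and *Chuk* (0.20), *Ikbkg* (0.29) and *Map3k7* (0.20) for confined cPLA_2_ KO against LPS; the cause was not tested. Requiring also an absolute log2 difference above 1, the calls were, for confinement, 6 of the 10 and 3400 of all genes in cPLA_2_ WT and 1 and 2139 in cPLA_2_ KO DCs, 3 and 1371 for the interaction, 0 and 206 between nonconfined and 2 and 1805 between confined genotypes, 8 and 5188 for LPS, and 2 and 2647 for confined cPLA_2_ WT and 5 and 4227 for confined cPLA_2_ KO DCs against LPS. Between nonconfined genotypes 1 of the 10 was called, against 2 with the same total per library, 0 with only the groups compared in the fit, and 0 to 2 with single libraries left out, where 756 to 2097 of all genes were called in place of 1588; the cause was not tested. Between libraries labelled LPS cPLA_2_ KO and LPS cPLA_2_ WT, 1 gene was called with no filter, 0 to 3 with single libraries left out and 19 without the 2 that lacked Y-linked reads, in place of 0. Libraries of the same replicate number did not deviate together and were not treated as paired. No comparison had all 3 correlations above 0.1, and confined cPLA_2_ WT with confined cPLA_2_ KO gave 0.338, 0.208 and 0.040. Only equal replicate numbers were compared, so this could not show the pairs across the LPS labels, of which only that of replicate 3 has equal numbers. The replicate block follows the same numbers. With a replicate block, 8 of the 10 were called for confinement in cPLA_2_ KO DCs (9 without the block), 7 for the interaction (8), 6 for confined cPLA_2_ WT against LPS (7), and 8138, 4426 and 9576 of all genes; the calls lost were those of *Ikbke*, *Ikbkg* and *Map3k14*, and the other counts of the 10 were equal.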
